A study of Rattus norvegicus with 4 samples.

Results

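Open chromatin regions (OCRs) of rat retinal ganglion cells (RGCs) were called at postnatal day 11 (P11) and at embryonic day 21 (E21). Of these, 14162 were called at P11, not called at E21, and far from each region called in all 4 libraries. These distant P11-only regions were chosen by their calls and positions alone, out of 224715 merged regions on the 20 numbered chromosomes. A region was P11-only if both P11 libraries and neither E21 library had an OCR in it, which held for 28103 regions, 12.51% of all merged regions. Those in chains of 3 or more P11-only regions with gaps of up to 12500 bp were left out, and the distant ones were the remainder lying more than 5 kb, edge to edge, from each of the 81097 regions called in all 4 libraries (constant regions). The calls, the distances and the chains are thus what defined the set and are given below as descriptions.

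The RGCs came from Sprague Dawley rats and were purified from dissociated retina by immunopanning, with a negative selection against macrophages and a positive selection on Thy1. Each stage had 2 ATAC-seq libraries, each from the pooled cells of its own litter and each made from 300000 cells frozen in medium with DMSO. No treatment is named for either group. They differed in age and, per the methods, in the amount of papain used to dissociate the retina, which was higher at P11. The cell type is the one given by the labels. Its markers were not checked here, because no OCR was assigned to a gene.

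In ATAC-seq a transposase inserts adapters where DNA is not wrapped in nucleosomes, so stretches dense in insertions mark promoters, enhancers and other regulatory elements. Promoters tend to be accessible in many cell types and stages, whereas elements far from them are opened by combinations of transcription factors that change as a cell matures. RGCs, whose axons form the optic nerve, extend those axons before birth and lose most of that growth capacity in the days after it, while they form synapses and approach eye opening. The comparison asks which stretches of chromatin are called in the postnatal neuron and not in the embryonic one. It is limited here to stretches away from regions called in all 4 libraries.

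The 4 libraries had 123707 and 151816 OCRs on the numbered chromosomes at E21 and 152301 and 163714 at P11. The genome-wide background, the pileup expected at any position and proportional to depth, was 4.80 reads in E21 replicate 1 and 5.03 in E21 replicate 2, and 4.30 and 4.17 reads in the P11 libraries. The weakest OCR had a summit pileup of 14 reads in each E21 library and 13 in each P11 library. Divided by the background, that limit came to 2.91 and 2.78 in the E21 libraries, and to 3.02 and 3.12 in those of P11. The P11 libraries were thus the shallower ones and had the slightly higher limit, and E21 replicate 1 had the shortest list.

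The distant regions made up 50.4% of the P11-only regions (Wilson 95% interval 49.8 to 51.0%). A further 9633 (34.3%) lay within 5 kb of a constant region and 4308 (15.3%) were in chains. The same rule applied to the embryonic stage started from 17102 E21-only regions, 7.61% of all merged regions, and left 10737 distant ones, or 62.8% (62.1 to 63.5%), with 906 (5.30%) in chains. Outside chains, the distant share was 59.5% (58.9 to 60.1%) at P11 and 66.3% (65.6 to 67.0%) at E21. The shares of all stage-only regions, 50.4% and 62.8%, moved when the lists were made equally long, to 59.3% at P11 and 65.3% at E21. The intervals cover counting error only. The lower distant share at P11 was found under each of the 14 alternatives tried, with gaps of 5.96 to 17.4 percentage points.

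**Figure D1:**
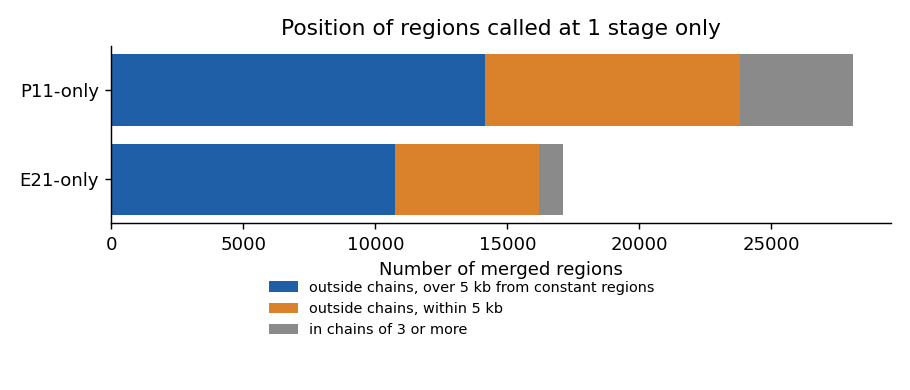
Number of merged regions called at 1 stage only (horizontal axis), for P11-only and E21-only regions (bars), divided by position. Distant regions form the longest segment of both bars, with 14162 regions at P11 and 10737 at E21, and chains hold 4308 regions at P11 and 906 at E21.

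There were 1.32 distant P11-only regions for each distant E21-only region. That ratio was not stable to the choice of libraries. Taken from 1 library of each stage at a time, it ran from 0.815 to 1.52 over the 4 pairs (SD 0.305), and with equal numbers of OCRs in each library it was 0.897, with 11736 regions at P11 and 13089 at E21. Without E21 replicate 1 it was 0.751, but a call in 1 E21 library then sufficed for an E21-only region. The excess of distant regions at P11 was therefore about as large as the spread between pairs of libraries.

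Distant P11-only regions were mostly in the weaker part of their lists. When the OCRs of a library were ranked by −log10 q from 0 to 100, their median rank was 34.5 in P11 replicate 1 and 41.2 in replicate 2, whereas constant regions had medians of 70.2 and 72.1. The median fold enrichment over local background at the summit was 4.34 (interquartile range 3.74 to 5.28) in replicate 1 and 4.64 (3.87 to 5.81) in replicate 2. In reads, the median summit pileup was 23 (19 to 28) and 24 (20 to 31), and the whole range was 13 to 110 and 13 to 136. In replicate 1, 78.4% of them had a −log10 q of at least 5, and in replicate 2, 88.2%.

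A level above background at P11 can be set beside the limit at which the E21 libraries made calls. Over the genome-wide background, every P11 call exceeds 2.91, the higher of the E21 limits, since the P11 limits were 3.02 and 3.12. Of the 14162 distant regions, 9917 (70.0%; Wilson 69.3 to 70.8%) reached 1.5 times that limit in both libraries, 3873 (27.3%; 26.6 to 28.1%) reached 2 times and 888 (6.27%; 5.88 to 6.68%) reached 3 times. The limit is that of the weakest OCR of a list. Calls are made against the local background, so a call needs more reads where that background is above the genome-wide value. At P11 the 2 were equal, within 5%, at 78.7% and 76.4% of the distant regions. The lists give no signal where no OCR was called, so the level of these places at E21 is not analysed here. A region just under the limit and a fully closed one cannot be told apart.

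The distant regions were simple in form, like the other regions called at 1 stage. In P11 replicates 1 and 2, 0.960% and 0.671% of them held several OCRs, against 0.768% and 0.581% of the nearer P11-only regions. A single OCR of each P11 library accounted for 13935 distant regions (98.4%). The merged regions had a median width of 430 bp (331 to 555 bp) and covered 6.57 Mb in all. Of these, 5785 (40.8%) were 200 to 400 bp wide and 5393 (38.1%) were 400 to 600 bp, while 234 (1.65%) reached 1000 bp. The median width of the single OCRs was 333 bp in replicate 1 and 358 bp in replicate 2, against 532 and 552 bp for OCRs in constant regions. The widest, chr17:66422441-66424318 on the rn6 assembly, spanned 1878 bp with a fold of 9.29 in replicate 1 and 8.34 in replicate 2, and its nearest constant region was 24.4 kb away.

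The local background counts reads around an OCR, so it takes in a constant region nearby and follows in part from the rule on distance. It equalled the genome-wide value, within 5%, at 78.7% of distant regions in replicate 1 and 76.4% in replicate 2, compared with 23.1% and 20.4% of the P11-only regions within 5 kb of constant chromatin. E21-only regions were divided in the same way, with 91.6% and 88.1% of the distant and 33.6% and 24.7% of the nearer ones at the genome-wide value. A background of over 2 times the genome-wide value was found at 0.939% and 1.14% of distant regions and at 25.4% and 27.5% of nearer ones. The nearer regions had more reads at the summit, with medians of 28 and 29, and a lower fold, with medians of 3.77 and 3.93. The order by reads and the order by fold thus ran opposite ways in both libraries, and the median ranks of the nearer regions, 35.9 and 36.1, lay close to those of the distant ones. The widths, 312 and 326 bp, were smaller. These classes come from the same libraries and were defined by position, so the values are given without a test.

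**Figure D2:**
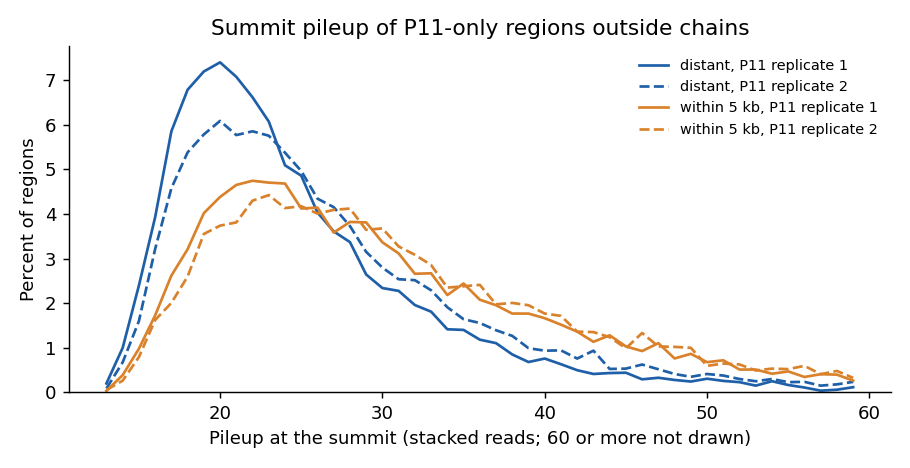
Percent of regions (vertical axis) by summit pileup in stacked reads (horizontal axis) for distant P11-only regions (blue) and P11-only regions within 5 kb of a constant region (orange), in P11 replicate 1 (solid lines) and replicate 2 (dashed lines). The distant regions are shifted to lower pileups in both libraries, with medians of 23 and 24 reads against 28 and 29.

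Beside the distant E21-only regions, distant P11-only regions had a lower median fold, a greater median width and a lower median pileup. The library values of the stages did not overlap in any of these, though the fold differed by little more than the SD between libraries. Over all OCRs, the median fold was also lower at P11, at 4.62 and 4.84 against 5.69 and 5.47 at E21. So was the median pileup over all OCRs, at 30 and 31 reads against 39 and 41. A lower fold and pileup at P11 were thus not particular to the distant regions. The median widths of all OCRs were 394 and 396 bp at P11 and 379 and 400 bp at E21. The median fold was 4.49 ± 0.216 for P11-only regions at P11 and 4.81 ± 0.226 for E21-only regions at E21 (SD, n = 2 each), from 4.34 and 4.64 against 4.65 and 4.97. The P11 value of replicate 2 and the E21 value of replicate 1 were almost equal. The difference of −0.320 was reversed when either E21 library was left out, to 0.446 without E21 replicate 1 and 0.326 without E21 replicate 2. The median width was 345.5 ± 17.7 bp at P11 and 292 ± 38.2 bp at E21, with 265 and 319 bp in the E21 libraries, and leaving out either P11 library reversed this difference of 53.5 bp, to −15 bp without P11 replicate 1 and −22 bp without P11 replicate 2. The median summit pileup was 23.5 ± 0.707 reads at P11 and 28 ± 2.83 reads at E21, where it was 26 and 30. That difference of −4.5 reads became 0 without E21 replicate 2. Leaving out a library also changes the rule, since a call in the 1 remaining library of that stage then suffices. Distant E21-only regions numbered 18124 without E21 replicate 1, and distant P11-only regions 20737 without P11 replicate 1. How far this moved the medians was not tested. The exact two-sided permutation test gave p = 0.333 for each of the 3 measures, the smallest value that 2 libraries against 2 can give, so none could pass 0.05. Fold and pileup also enter the calls themselves, and the region classes were not redefined for each exchange of libraries. The test therefore cannot decide whether the stages differ.

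Relative to its own list, the median fold of the distant regions was 0.950 ± 0.014 of the library median at P11 and 0.864 ± 0.064 at E21 (SD, n = 2). Ranks are percentiles within lists of different length, so a given rank is not the same level at each stage. A rank of at least 75 in both was reached by 537 distant P11-only regions (3.79%; Wilson 3.49 to 4.12%) and by 137 distant E21-only regions (1.28%; 1.08 to 1.51%). A rank of at least 90 in both was reached by 32 and by 3 regions. By the unranked −log10 q the order was the opposite, with medians of 7.63 and 9.41 for distant P11-only regions and 9.62 and 11.7 for distant E21-only regions. No order of strength between the stages is read from these values.

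The 10 strongest distant regions, ordered by the lower of their P11 ranks, lay on 7 chromosomes. Their fold enrichment ran from 9.08 to 15.2 in replicate 1 and from 9.51 to 16.2 in replicate 2, with summit pileups of 70 to 136 reads. At chr15:60135077-60135935, 18.1 kb from the nearest constant region, the fold was 13.1 in replicate 1 and 12.7 in replicate 2, with 85 reads in each. At chr7:42201489-42202254, 28.8 kb away, the summit held 78 and 82 reads and the fold in replicate 1 was 12.7. The libraries also gave like values at chr18:23405125-23405901, the most isolated of the 10 at 61.6 kb, where the fold was 14.6 and 13.5. The libraries differed more at chr18:40478255-40479062, with 85 and 136 reads, and at chr20:27018775-27019405, with 80 and 108 reads. The 10 were chosen for a high rank in both libraries, so like values follow in part from the choice.

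The fold at chr14:91323297-91324051 was 13.4 in replicate 1 and 14.1 in replicate 2, and its constant neighbour was 17.5 kb away. At chr2:200565441-200566438, 9.29 kb from its constant neighbour, the pileups were 85 and 81 reads. A pair of the 10 combined many reads with a lower fold, on a higher local background. At chr20:28529852-28530438 there were 101 and 98 reads and folds of 9.40 and 9.51, and at chr16:20754804-20755923 there were 94 and 98 reads and folds of 9.08 and 10.1. In all 10, the summits placed by the libraries were within 114 bp of each other, and the nearest OCR of either E21 library was 1.78 to 35.0 kb away.

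**Figure D3:**
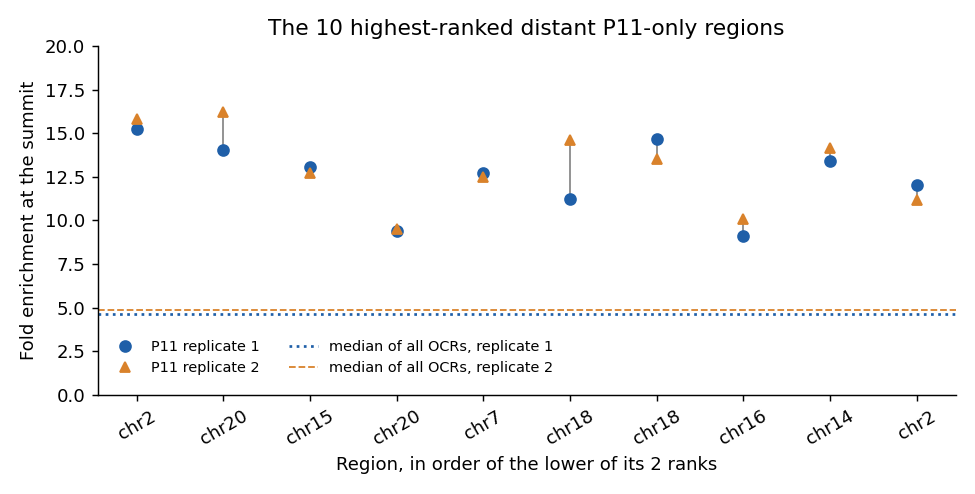
Fold enrichment at the summit (vertical axis) of the 10 distant P11-only regions with the highest lower rank, in order of that rank (horizontal axis, named by chromosome), in P11 replicate 1 (circles) and replicate 2 (triangles), with the median of all OCRs of each library as a horizontal line. All 10 lie above 9 in both libraries, against medians of 4.62 and 4.84 over all OCRs.

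The P11 libraries ranked distant regions less alike than constant ones, and about as alike as other regions called at 1 stage. The Spearman correlation of their ranks over the 14162 regions was 0.520, against 0.858 over the 81097 constant regions in the same libraries. It was 0.493 for P11-only regions near constant chromatin, 0.545 for those in chains and 0.561 for distant E21-only regions in the E21 libraries. The median difference in rank was 14 points, and 37.9% of the regions lay within 10 points. These points share 2 libraries, a common lower limit and a narrow range of strength, so the correlation is a description. Summits were 55 bp apart in the median, and 47.5% were within 50 bp, against 37 bp and 56.7% in constant regions, and the medians were 54 bp in the nearer P11-only regions and 53 bp in those in chains. Distant E21-only regions had a summit distance of 29 bp in the median and 65.1% within 50 bp. Constant regions differed between stages in the same direction, with 20 bp and 70.0% at E21.

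How often an isolated OCR was found again in the other P11 library depended on its strength. In replicate 1, 25639 regions lay more than 5 kb from constant regions and had no E21 call, before chains were left out. Of these, 65.1% were also called in replicate 2, and the share rose with −log10 q, from 44.0% below 5 to 65.8% between 5 and 10 and 93.0% at 10 or more. Of the 30052 such regions of replicate 2, 55.5% were called in replicate 1, with 30.8%, 48.3% and 84.9% in the same classes. In the mirrored E21 comparison, 75.7% of 14977 regions of replicate 1 and 49.0% of 23146 regions of replicate 2 were found again. In those E21 libraries the share below a −log10 q of 5 was 53.2% and 19.5%, and at 10 or more it was 92.3% and 76.7%, so the share rose with strength in all 4 libraries.

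Distant P11-only regions usually had some other chromatin nearby. The nearest constant region was 13334 bp away in the median (interquartile range 8141 to 24961 bp), where the rule required over 5 kb. For 5041 of them (35.6%) it was 5 to 10 kb away, for 4460 (31.5%) 10 to 20 kb, and for 407 (2.87%) over 100 kb. The nearest OCR of an E21 library, constant or not, was 6883 bp away in the median, and 1365 regions (9.64%) had one within 1 kb. The nearest merged region of any kind was 3920.5 bp away. Another P11-only region was more remote, at 24669.5 bp, and the rule on chains limits how close these can lie. Only 70 regions (0.494%) had no E21 OCR within 100 kb. For distant E21-only regions, the nearest constant region was 15687 bp away in the median, and over 100 kb away for 5.42%. Their nearest OCR of a P11 library was 7216 bp away in the median. It was within 1 kb for 10.2% of them and over 100 kb away for 1.22%. Of the constant regions, 21.2% had another region with an E21 OCR within 1 kb.

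The median fold showed no steady trend with distance. From 5 to 10 kb out to over 100 kb from constant chromatin, the median fold of the 5 distance classes was between 4.15 and 4.34 in replicate 1 and between 4.64 and 4.84 in replicate 2. At most places the fold moves in steps of 1 read, so such medians can tie and hide a small trend. In replicate 2 the median rank was 37.3 beyond 100 kb and 41.2 in each nearer class. In replicate 1 it was 34.5 beyond 100 kb, as in the classes from 10 to 100 kb. The median width fell from 340 to 297 bp across these classes in replicate 1 and was between 356 and 360 bp in replicate 2, so the trend in replicate 1 was not shared. At the limit itself, 4 regions lay 5001 bp from a constant region and 1 lay 5003 bp. One of these, chr14:36109461-36109797, had folds of 4.76 and 6.04. Just outside, 3 regions lay at 4999 bp, 1 at 4998 bp and 1 at 4997 bp. Among these, chr17:19464394-19464963 had folds of 7.06 and 5.58.

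The most remote of all, chr6:140418558-140419070, was 2323.86 kb from the nearest constant region and was weak, with folds of 2.63 and 3.12. An E21 library had an OCR 698 bp from it. It lay in the stretch that held the most distant regions, chr6:138094693-143884658, which has no constant region over 5789.97 kb and held 15 distant P11-only regions. At chr7:19501754-19502216, 692 kb from a constant region, the folds were 6.41 and 4.64, and the nearest E21 OCR was 142 kb away.

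P11-only regions were sparser far from constant chromatin than close to it. The 1910.53 Mb of sequence between constant regions and over 5 kb from them held 7.41 distant P11-only regions per Mb, and the 639.736 Mb within 5 kb held 15.1 P11-only regions per Mb. The corresponding E21-only densities were 5.62 and 8.53 per Mb. Regions in chains and beyond the outermost constant regions were not counted in these densities.

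Of 48892 stretches of over 10 kb between neighbouring constant regions, 10710 (21.9%) held a distant P11-only region. The share rose with the length of the stretch, from 6.80% at 10 to 20 kb to 23.6% at 20 to 50 kb, 37.9% at 50 to 100 kb, 45.0% at 100 to 200 kb and 49.4% above 200 kb. A longer stretch has more room for such a region. In 8068 of the occupied stretches (75.3%) there was 1 distant region, in 2065 (19.3%) there were 2, and 41 stretches (0.383%) had 5 or more. Among the 5 stretches with the most of them, the shortest was chr11:60955751-61050843, which held 8 in 95.1 kb.

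**Figure D4:**
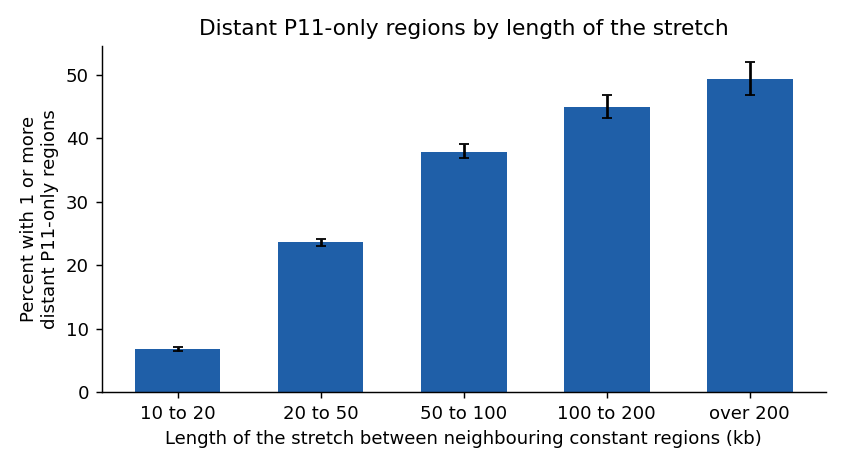
Percent of stretches between neighbouring constant regions that held 1 or more distant P11-only regions (vertical axis), by length of the stretch in kb (horizontal axis). Error bars are 95% Wilson intervals of the share. The share rises from 6.80% for stretches of 10 to 20 kb to 49.4% above 200 kb.

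The regions were spread over all numbered chromosomes, from 243 on chromosome 12 to 1337 on chromosome 1. Per Mb of sequence over 5 kb from constant regions, the density was between 6.07 on chromosome 2 and 9.03 on chromosome 19, with a median of 7.34 over the 20 chromosomes, except for chromosome 17 with 12.2. Chromosome 17 also had the lowest density of distant E21-only regions, 4.31 per Mb, and its ratio of P11-only to E21-only distant regions was 2.82, from 768 and 272 regions. The excess was not limited to distant regions, since chromosome 17 had 1440 P11-only and 474 E21-only regions in all, and the distant share of its P11-only regions was 53.3%, against 50.4% over all chromosomes. The next highest ratio was 1.79 on chromosome 9. Chromosome 10 was at the other end, with 503 regions at P11 and 674 at E21, a ratio of 0.746, and chromosome 12 was the other one below 1, at 0.949.

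Strength did not set chromosome 17 apart. Its distant P11-only regions had a median fold of 4.34 in replicate 1 and 4.84 in replicate 2, within the ranges of 4.15 to 4.34 and 4.45 to 4.84 over all chromosomes. Because most backgrounds equal the genome-wide value, the fold moves in steps of 1 read and many chromosomes share the same median. Without chromosome 17 the genome-wide ratio was 1.28 in place of 1.32.

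**Figure D5:**
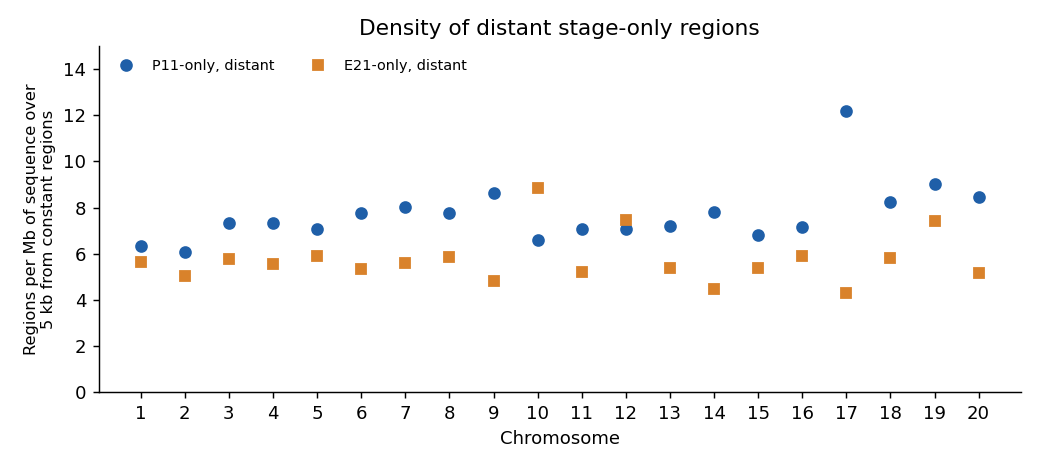
Distant stage-only regions per Mb of sequence over 5 kb from constant regions (vertical axis) for each numbered chromosome (horizontal axis), P11-only as circles and E21-only as squares. Chromosome 17 has the highest P11-only density, 12.2 per Mb, and the lowest E21-only density, 4.31, and on chromosomes 10 and 12 the E21-only density is the higher one.

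On a finer scale, the 528 windows of 5 Mb with at least 50 merged regions held a median of 27 distant P11-only regions (20 to 33) and from 2 to 60. They outnumbered the distant E21-only regions in 360 windows, equalled them in 15 and were fewer in 153. In all 19 windows of chromosome 17 they were the more numerous. Neither windows nor single chromosomes were recounted with equal numbers of OCRs per library, a setting in which the genome-wide ratio was 0.897. The fullest windows were chr17:60000001-65000000, with 60 regions at P11 and 23 at E21, and chr17:30000001-35000000, with 59 and 13. On other chromosomes, chr13:50000001-55000000 held 57 and 25, and chr14:70000001-75000000 held 57 and 16. The reverse was found at chr7:65000001-70000000, with 13 at P11 and 55 at E21, the highest E21 number. Across windows, the number of distant P11-only regions had a Spearman correlation of 0.565 with the number of constant regions and 0.132 with that of distant E21-only regions. Windows share libraries, base composition and the amount of sequence that could be mapped, so both are descriptions.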

How the data were processed

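ATAC-seq was analysed in 4 libraries, 2 per stage, grouped by their GEO labels. According to the study's methods the authors used the ATAC-seq Integrative Analysis Package to map reads and call OCRs in each library. The submitters' processing notes name MACS2 and the rn6 (Rnor_6.0) assembly, with no version or settings. The deposited lists give for each OCR a score, a fold enrichment, a −log10 p value, a −log10 q value and a summit. All values are the authors' own. The lowest −log10 q values lay at the limit of q = 0.01. Duplicate lines would have been dropped, and none were found. Read totals were not used here. Reads per region are needed for the authors' DESeq2 test, which was not rerun on lists of calls.

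OCRs of the 4 lists were merged where they overlapped by at least 1 bp. The summit pileup and local background were solved from the deposited fold, taken as pileup plus 1 over background plus 1, and the −log10 p value, taken as the Poisson tail. The pileup came out whole, within 0.02, for 100% of OCRs. The lowest local background of a library is its genome-wide value, and precision is that of a pileup of 13 reads upward. Scripts ran in Python 3.11.15 with numpy 2.4.6, pandas 2.3.3, scipy 1.17.1 and matplotlib 3.10.9 and were tested on simulated data. A region with several OCRs took the values of the one with the highest −log10 q. For stage differences in a value per library, all exchanges of the 4 libraries were enumerated (exact permutation test, two-sided). Litters were separate, but the regions were chosen by calls that both litters of a stage shared. The p-values therefore do not measure the ordinary spread between litters.

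The regions described and the lists were chosen with earlier results of these data known. Named regions are the 10 with the highest lower rank of the P11 libraries, and the 5 with most OCRs, the 5 widest, the 5 farthest from constant regions and the 5 on either side of the 5 kb limit, of which examples are given. Stretches and windows were named by their number of regions. No gene was assigned and no sequence is shown, because the genome and annotation used here were not of the rn6 build. The planned annotation, motif and marker comparisons were therefore not run. Replicate numbers were not taken to pair the libraries in the main comparisons.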

Additional observations from a re-analysis of the deposited data

Results flagged for a closer look

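Chromosome X was outside the numbered chromosomes and entered no comparison above. By the same rule it held 361 distant P11-only regions and 249 distant E21-only regions, a ratio of 1.45, out of 482 and 310 regions called at 1 stage only. It drew attention as a signal in data the comparisons did not use. The distant regions were 74.9% of the P11-only regions on X, and 1328 of its 4000 merged regions were constant. Since 249 of the 310 E21-only regions on X were distant too, a high distant share was not particular to P11. The median fold of the distant P11-only regions on X was 3.98 in P11 replicate 1 and 4.84 in replicate 2. On chromosome Y there were 0 distant P11-only regions and 1 distant E21-only region among 11 merged regions.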

How the results depend on the processing

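The number of distant P11-only regions, 14162, was within 1.5 times of itself in 14 of 15 alternatives, and was 9121 when they had to lie over 10 kb from constant regions. Leaving out 1 library gave 13612 to 20737, with both P11-only and constant regions then defined on 3 libraries. Their share of the P11-only regions, 50.4%, was 56.1% when weaker OCRs (−log10 q below 5) were dropped, 59.3% with equal numbers of OCRs, 53.7% with strict presence and absence at the deposited limit, 57.6% when a library had to cover 50% of a region, 63.7% beyond 2.5 kb, 32.5% beyond 10 kb, 40.1% with distance taken to regions of at least 1 library per stage, 59.4% with no chains left out, 40.0% with chains of gaps up to 25 kb left out, and 40.6 to 44.9% without 1 library. The ratio to distant E21-only regions, 1.32, was 0.897 with equal numbers of OCRs, and 0.751 (without E21 replicate 1) to 1.65 (without P11 replicate 1) when 1 library was left out. The cause was not tested.

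The differences in medians between stages reversed only when a library was left out, where a call in the 1 remaining library of that stage sufficed. The fold difference of −0.320 then ran from −1.02 to 0.446, with 0.326 without E21 replicate 2. The width difference of 53.5 bp ran from −22 to 120 bp, with −15 bp without P11 replicate 1, and the pileup difference of −4.5 from −8 to 0 reads. In the other alternatives they were −0.442 to −0.0634, 52 to 87.5 bp and −5 to −3 reads, and as means of log2 values −0.10, 0.19 and −0.24. Exact permutation p-values were never below 0.333, the smallest value possible, and decide nothing here.

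With the replicate number as a block the differences were the same, −0.320, 53.5 bp and −4.5 reads, and the smallest possible exact sign-flip p was 0.5. The correlation of same-numbered deviations over the 81097 constant regions was 0.0272. With 2 libraries per stage, this value cannot show whether same-numbered libraries were handled together. Chosen after seeing the data, leaving out chromosome 17 gave 13394 regions, a share of 50.2% and a ratio of 1.28, and leaving out regions of high local background gave 13969 and 1.31. The alternatives of the motif and annotation comparisons (window, regions, promoter limit and summit) were not run. The lists give no signal below a pileup of 13 or 14 reads, so weaker openness at either stage was not detectable at this depth.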
